A study of Mus musculus with 8 samples.

Results

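Wide m6A peaks were the rows of 4 deposited peak lists whose genomic width, end minus start plus 1, was above 500 bp, whatever their annotation. There were 351 of them among 20732 peaks (1.69%), and the other 20381 are called narrow peaks here. By list, 90 of 6285 peaks were wide in TBP, 157 of 6981 in TCP, 53 of 3034 in TIP and 51 of 4432 in the untreated control. The groups were RAW264.7 cells, an established mouse macrophage line, exposed for 24 h to 100 µM of TBP, of TCP or of TIP, and the same cells with no treatment. The labels name the compounds by these abbreviations alone. RNA was immunoprecipitated with an antibody against m6A and reduced to short fragments on a gel before sequencing. Each group had 1 immunoprecipitated library. The 4 input libraries of the series were not analysed here. With 1 library per group there was no replicate spread and no test between groups. Every interval below is an exact Clopper-Pearson 95% interval for a share of peaks or genes and covers counting error only. The read depth of the libraries is unknown from the lists. Of the 12 macrophage markers examined, 8 were marked by a peak, and of the 17 markers of lymphocytes, fibroblasts, epithelial and endothelial cells 0 were.

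N6-methyladenosine (m6A) is placed on nascent mRNA by a methyltransferase complex and is best known near stop codons, in 3′ UTRs and in long internal exons. Mature mRNA is spliced, whereas a peak list gives positions on the genome. A fragment of mRNA that crosses a splice junction has its parts in 2 exons, and a region drawn from its first to its last base on the genome takes in the intron between them. Reader proteins bind the mark and influence splicing, export, translation and decay of the transcript.

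The sequence at the end of a wide peak is shown for 2 peaks whose 3′ end lies beside a gene start, because these are wide peaks at whose end the letters of a 25 bp window could be read. The sequences are from the RefSeq promoter table (GRCm38.p6, plus strand), and capitals mark 1 whole 25 bp window of the peak. The first is the last window of the widest control peak, at chr13:104817165-104817194, where Srek1ip1 begins in RefSeq.
Srek1ip1: cctggAAACTGCATCCACAGCCACTTAGTT
The second is the second-last window of the Elf1 peak in TBP, at chr14:79515675-79515704.
Elf1: cccaaTCTGCAGGAGCCATTTTAACAGCAC
The letters GGAC, the core of the best known m6A motif, were searched on the transcribed strand alone and had 0 matches in each 30-base stretch. Other forms of the motif were not searched, so this does not say that the stretches lack one. At the same place relative to the gene start, 9.09% and 9.29% of 32851 RefSeq promoter windows held them.

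Wide peaks made up 1.43% of TBP peaks (1.15% to 1.76%), 2.25% of TCP peaks (1.91% to 2.62%), 1.75% of TIP peaks (1.31% to 2.28%) and 1.15% of control peaks (0.858% to 1.51%). The TCP interval lay above those of TBP and control and overlapped that of TIP. Read depth, which was not known, could not be told apart from the compound. The median width of wide peaks was 1562.5 bp in TBP, 1808 bp in TCP, 1489 bp in TIP and 1669 bp in control, whereas the median narrow peak measured 50 bp in each list. Of the 351 wide peaks, 248 exceeded 1000 bp and 21 exceeded 10000 bp. Of these 21, 10 were in TBP, 10 in TCP, 0 in TIP and 1 in control.

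**Figure D1:**
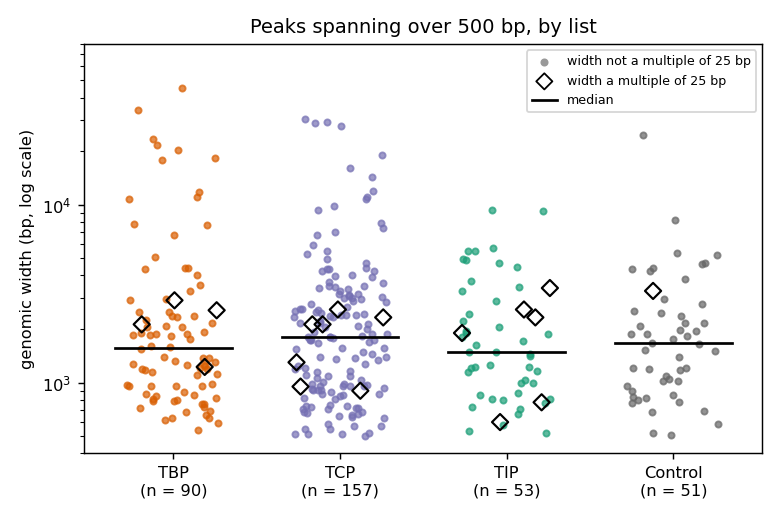
Genomic width of each wide peak (bp, log scale) in the TBP, TCP, TIP and control lists. Each mark is 1 peak, a line is the list median, and open diamonds are the 18 peaks whose width is a multiple of 25 bp. TBP and TCP have 10 peaks each above 10000 bp and control has 1, while the widest TIP peak reaches 9393 bp.

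In TBP the widest was a 45195 bp peak in Kansl1, which encodes a scaffold of a histone acetyltransferase complex. It was followed by a 34111 bp peak in Elf1, an ETS family transcription factor gene. The next were Rc3h1 at 23314 bp, which encodes the mRNA-destabilising protein roquin, Cdc42 at 21541 bp, which encodes a small GTPase of actin dynamics, and Baz1a at 20337 bp, which encodes a chromatin remodelling subunit. In TCP the widest lay in Cul1 at 30285 bp, the scaffold of SCF ubiquitin ligases, Purg at 29243 bp, Mef2a at 28659 bp, a MADS-box transcription factor gene, Herc1 at 27744 bp and Trim44 at 19121 bp. TIP had shorter extremes. Mbnl1, which encodes a splicing regulator, held a 9393 bp peak in TIP, and Gtf2f2, a subunit of general transcription factor TFIIF, one of 9179 bp. Xpo1, the nuclear export receptor, followed at 5745 bp, the clathrin light chain gene Clta at 5507 bp and the osmotic stress regulator Nfat5 at 5493 bp. In control a 24586 bp peak of Srek1ip1 stood apart from the next ones, in Tm9sf3 at 8166 bp, Ywhae at 5366 bp, Cisd1 at 5187 bp and Cpsf7 at 4671 bp. Across the 4 lists, 10 of the 21 peaks above 10000 bp carried the 5′ UTR class, which Elf1, Rc3h1, Cdc42, Cul1, Mef2a, Trim44 and Srek1ip1 share.

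At the limit itself, peaks on either side were alike in kind. The narrowest wide peaks measured 544 bp in TBP (Syncrip), 504 bp in TCP (Hspa4), 523 bp in TIP (Nfat5) and 508 bp in control (Tmem251). The widest peaks under the limit measured 491 bp in TBP (Cpsf2), 489 bp in TCP (Ppm1g), 492 bp in TIP (Atp5a1) and 455 bp in control (Krtcap2). None of these 8 widths was a multiple of 25 bp.

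Whether wide peaks span introns was examined along 2 lines, the arithmetic of their widths and the exon numbers in the lists. Narrow peaks were built from 25 bp windows. A width that is not a multiple of 25 bp is called off the grid here. Of the wide peaks, 86 of 90 were off the grid in TBP (95.6%, 89.0% to 98.8%), 150 of 157 in TCP (95.5%, 91.0% to 98.2%), 47 of 53 in TIP (88.7%, 77.0% to 95.7%) and 50 of 51 in control (98.0%, 89.6% to 99.95%). Of the narrow peaks, 0.710% were off the grid in TBP, 0.777% in TCP, 0.704% in TIP and 0.662% in control. Over the 4 lists, 333 of 351 wide peaks (94.9%) and 147 of 20381 narrow peaks (0.721%) were off the grid, and the intervals of wide and narrow peaks did not overlap in any list. A span of arbitrary length falls on a multiple of 25 bp in 4% of cases by arithmetic alone. The grid was read from the same width that chose the wide peaks. Their contrast with narrow peaks was therefore partly set in advance. Off-grid peaks of any width numbered 480, of which 333 (69.4%) exceeded 500 bp. The 147 narrow ones had a median width of 214 bp.

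**Figure D2:**
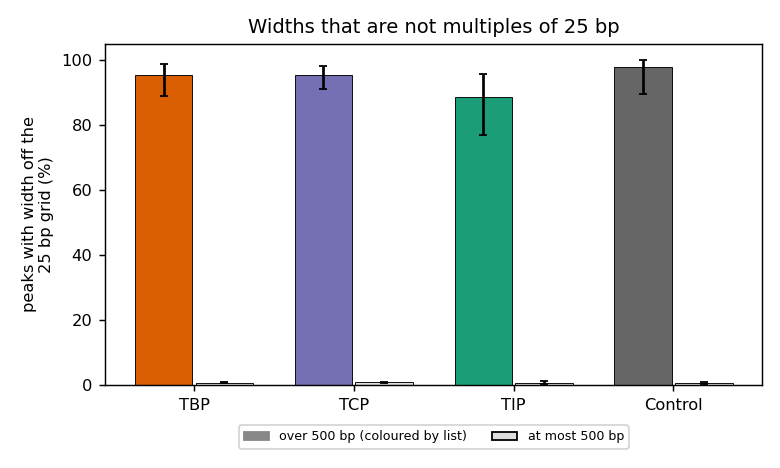
Share of peaks (%) whose width is not a multiple of 25 bp, for wide peaks (coloured) and narrow peaks (grey) in TBP, TCP, TIP and control. Bars are shares, and error bars are exact 95% intervals for counting error. Wide peaks lie between 88.7% and 98.0%, narrow peaks between 0.662% and 0.777%.

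The window grid changed from exon to exon. Of 1590 exons that held at least 2 narrow peaks, 1556 (97.9%) had all of them on 1 grid of 25 bp. Neighbouring marked exons of the same transcript shared a grid position in 52 of 735 pairs (7.07%). By construction the 2 ends of an off-grid wide peak lie on different grids. Narrow peaks of other lists at those ends, with off-grid ones left out, followed the grid of the end they touched in 242 of 242 cases. Because peaks of 1 exon mostly share a grid, this was largely set in advance. A narrow peak at overlapping wide peaks was counted for each.

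Exon numbers gave a second line where they could be read. The lists give each peak 1 annotation, so a second exon showed only where a narrow peak inside the wide one carried an exon number of the same transcript. This was so for 38 wide peaks. Of these, 23 touched at least 2 numbered exons (6 in TBP, 13 in TCP, 1 in TIP and 3 in control), and 15 met the same exon number alone. The exons were neighbours in 21 of the 23. Gspt1, which encodes a translation termination factor, showed this in 2 lists: a 2162 bp peak in TBP and a 2162 bp peak in control, offset by 1 window, each carried exon 5 as its label with exon 6 inside it. Phf12, which encodes a PHD finger protein, had a 635 bp peak with identical ends in TBP and TCP that ran over exons 8 and 9. In TCP, the same pattern was seen for Lcp1, the actin bundling protein of leukocytes, over exons 5 and 6, and for the deubiquitinase gene Cyld over exons 2 and 3. In control, Luzp1 showed exons 4 and 5 under an 1819 bp peak.

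The remaining 2 of the 23 reached past a neighbouring exon. A 758 bp peak of Rif1 in TBP met exons 28 and 30, whereas a 583 bp TCP peak at the same place was labelled with exon 29 and met exon 30. Rif1 encodes a regulator of replication timing and of DNA break repair. The 27744 bp TCP peak labelled Herc1, which encodes a very large ubiquitin ligase, met exons 25 and 37, but its strand is opposite to that of Herc1 in RefSeq. Of 200 wide peaks with a numbered exon and a gene of known strand, 4 lay on the opposite strand (2%, 0.548% to 5.04%), against 48 of 7485 narrow peaks (0.641%). The other 3 were a peak labelled Srcap in TBP, one labelled Srcap in TCP and 1 of the 2 control peaks labelled Srek1ip1.

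Of the 18 wide peaks with widths on the grid, 5 met 2 neighbouring exons: Rnf11 in TBP (2550 bp) and TCP (2575 bp), Smap2 in TCP and TIP (2325 bp in each list) and Sh3glb1 in control (3275 bp). Smap2 encodes a GTPase-activating protein for Arf proteins, and Sh3glb1 a membrane-curving protein. In all, 338 of 351 wide peaks (96.3%, 93.8% to 98.0%) were off the grid or met at least 2 exons. The first sign comes from the width that chose the peaks. The other 13 showed neither sign: 3 in TBP (Eif3a, Rbm3 and 2300009A05Rik), 5 in TCP (among them Eif3a, Timm9, St13 and Dnm1l), 5 in TIP (Cct8, Hnrnpul1, Cggbp1, Mdn1 and Hnrnpm) and 0 in control. None of the 20732 peaks carried an intron class. A small RNA gene of RefSeq lay wholly inside 8 wide peaks, for example a snoRNA gene inside the Rpl5 peaks of TBP (694 bp) and TIP (669 bp), and Snora31 inside the Tpt1 peak of TCP (813 bp).

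Wide peaks carried the 3′ UTR class less often than narrow ones. The share was 25.6% of wide against 51.0% of narrow peaks in TBP, 22.9% against 49.1% in TCP, 18.9% against 49.3% in TIP and 29.4% against 51.2% in control. The intervals of wide and narrow peaks did not overlap in any of the 4 lists. The class of exons outside UTRs held 60.0% of wide and 45.2% of narrow peaks in TBP, 69.4% and 47.1% in TCP, 75.5% and 47.2% in TIP, and 66.7% and 44.7% in control. The 5′ UTR class held 14.4% of wide peaks in TBP (7.92% to 23.4%) against 3.71% of narrow ones. In TCP it held 7.64% of wide (4.01% to 13.0%) and 3.77% of narrow peaks, and in TIP 5.66% (1.18% to 15.7%) and 3.46%. In control it held 3.92% of wide (0.479% to 13.5%) and 4.13% of narrow peaks. The intervals of wide and narrow peaks overlapped in TCP, TIP and control. Among peaks with a numbered exon, 8 of 237 wide peaks (3.38%) and 3445 of 9386 narrow peaks (36.7%) had the last exon as their label. Exon 1 was the label of 3.38% of wide and 7.91% of narrow ones over the 4 lists. By list the wide and narrow shares were 3.70% and 8.03% in TBP, 1.83% and 7.99% in TCP and 2.50% and 7.81% in TIP, whereas in control the wide share was the higher one, at 8.82% (3 of 34) and 7.66%. A label can miss a last exon that a wide peak reaches, so these shares cannot tell how often wide peaks reached the last exon. The Rnf11 peaks of TBP and TCP were labelled exon 2 of 3 and also met exon 3. Likewise, the Smap2 peaks of TCP and TIP were labelled exon 9 of 10 and met exon 10. The Luzp1 peak of control was labelled exon 4 of 5 and met exon 5. In each of these the label was the earlier exon. Because each peak has 1 class, the same region could be classed in more than 1 way. The Eif3a peaks of TBP (785 bp, exon 21 of 22) and TCP (1010 bp, 3′ UTR) share an end.

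**Figure D3:**
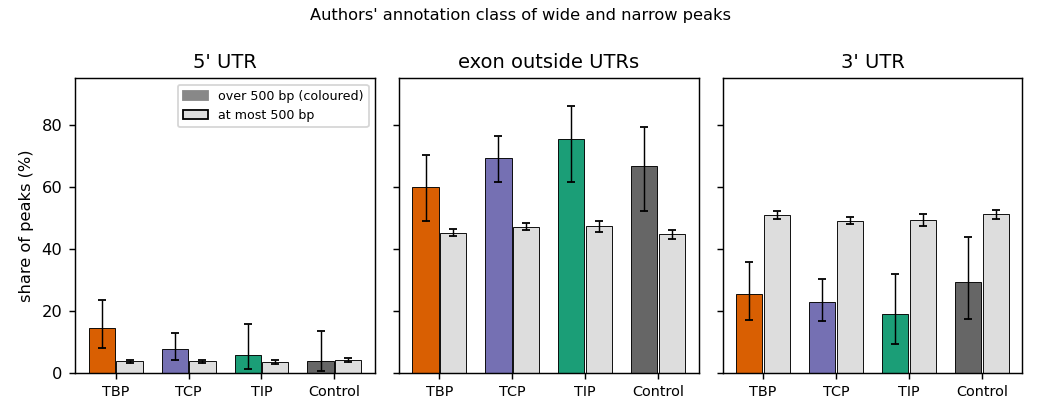
Share of peaks (%) in the authors' 3 annotation classes, for wide peaks (coloured) and narrow peaks (grey) in TBP, TCP, TIP and control. Error bars are exact 95% intervals for counting error. The 3′ UTR class holds 18.9% to 29.4% of wide and 49.1% to 51.2% of narrow peaks.

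The 3′ UTR peaks of Sfpq, a paraspeckle and splicing protein gene, measured 10801 bp in TBP and 10776 bp in TCP and shared their start. The widest classes differed: the median width was 4293 bp for the 30 wide peaks of 5′ UTR class, 1863 bp for the 84 of 3′ UTR class and 1542 bp for the 237 of exon class.

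Narrow peaks of other lists lay at the ends of many wide peaks and were nearly absent from their middles. A narrow peak of at least 1 other list, on the same strand and within 100 bp of an end, was found for 47 of 90 wide peaks in TBP (52.2%, 41.4% to 62.9%), 70 of 157 in TCP (44.6%, 36.7% to 52.7%), 18 of 53 in TIP (34.0%, 21.5% to 48.3%) and 24 of 51 in control (47.1%, 32.9% to 61.5%). Over the 4 lists this was 159 of 351 (45.3%), against 18 of 351 (5.13%) when the opposite strand was read. Narrow peaks themselves met a narrow peak of another list in 72.3% to 88.7% of cases by list. The 2 shares measure different things. The end windows cover the whole of most narrow peaks, so any overlap counts, whereas in wide peaks they leave out the middle. Of the 159, narrow peaks overlapped the wide peak in 76 and lay outside it in 83. They came from 1 other list in 90 cases, from 2 in 44 and from all 3 in 25. Beyond the 100 bp at each end, the middles of the 351 wide peaks covered 1061 kb and held 1 narrow peak of another list, whereas 140.4 kb around the ends held 273. This contrast was partly set in advance. No peak of the lists carried an intron class, so middles that were intron could hold few peaks. A narrow peak that touched an end window was not counted in the middle, and one at overlapping wide peaks was counted for each.

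The 2 ends differed. The 3′ end in the direction of the transcript had a narrow peak of another list in 129 of 351 wide peaks (36.8%, 31.7% to 42.0%), and the 5′ end in 45 (12.8%, 9.51% to 16.8%). At both ends there was one in 15. On the plus strand the counts were 72 of 180 at the 3′ end and 19 at the 5′ end, and on the minus strand 57 of 171 and 26. By list, the 3′ and 5′ counts were 40 and 12 in TBP, 61 and 17 in TCP, 11 and 9 in TIP, and 17 and 7 in control. The intervals of the 2 shares did not overlap in TBP and TCP, and overlapped in TIP and control. Wide peaks of 5′ UTR class had a narrow peak at the 3′ end in 18 of 30 cases, those of 3′ UTR class in 40 of 84 and those of exon class in 71 of 237.

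**Figure D4:**
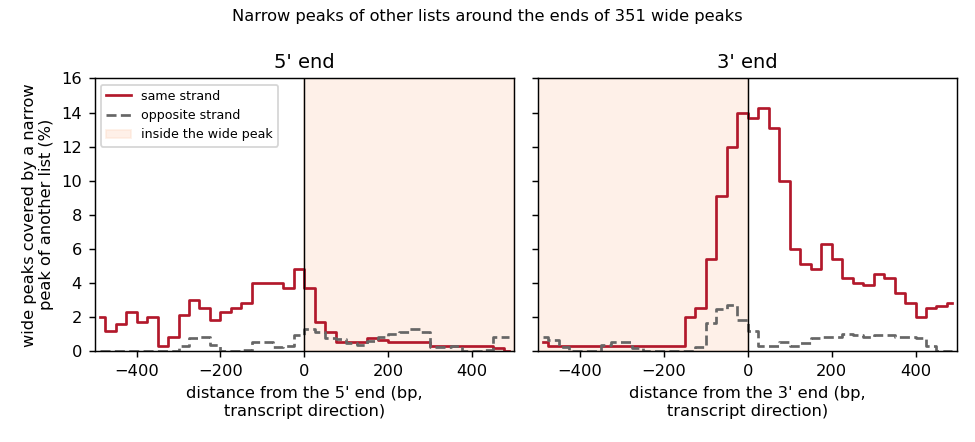
Share of the 351 wide peaks (%) covered by a narrow peak of another list, in steps of 25 bp from the 5′ end (left) and the 3′ end (right), on the same strand (solid) and the opposite strand (dashed). Shading marks the inside of the wide peak. Coverage reaches 14.2% just outside the 3′ end and 4.84% just outside the 5′ end on the same strand.

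Single peaks show what this looked like. In TCP the 3063 bp peak of Zfp809, a zinc finger protein known for silencing proviruses, had 4 narrow peaks of other lists at its 3′ end and 0 at its 5′ end. Ogdh, which encodes a subunit of the mitochondrial 2-oxoglutarate dehydrogenase, had a 4362 bp peak with identical ends in TBP and TCP, with 3 narrow peaks at the 3′ end in each case. Cul1 in TCP had 3 at its 3′ end. In contrast, the Kansl1 peak of TBP, the Mef2a peak of TCP, the Mbnl1 peak of TIP and the wider Srek1ip1 peak of control had 0 at both ends.

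Where wide peaks recurred, their widths were nearly the same. The 351 peaks formed 305 loci, taken as overlapping wide peaks on 1 strand. Of these, 263 were seen in 1 list, 39 in 2, 2 in 3 and 1 in 4. In 41 of the 42 loci seen in more than 1 list, widths differed by whole multiples of 25 bp, by a median of 25 bp and at most 225 bp. Both ends were identical in 11, for example at 951 bp in Nrd1 (nardilysin, a metalloendopeptidase) in TBP and control, and at 2085 bp in Myo5a (a vesicle-carrying myosin) in TCP and control. Polr3e, a subunit of RNA polymerase III, had 903 bp in TCP, 878 bp in TIP and 828 bp in control. The exception was Vps13c, a lipid transfer protein gene, where a 2412 bp TCP peak labelled exon 9 and an 1885 bp TIP peak labelled exon 10 overlapped at their facing ends. The locus in all 4 lists lay on chromosome 14, opposite in strand to Supt16, a histone chaperone subunit gene. Its peaks measured 1868 bp in TBP, 1918 bp in TCP, 1893 bp in TIP and 1868 bp in control and ended at the same base. The TCP peak reached into the RefSeq span of Rpgrip1 on the same strand and was assigned to that gene.

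Most wide peaks of a compound had no control peak over them. A control peak of any width overlapped 24 of 90 wide peaks in TBP (26.7%, 17.9% to 37.0%), 34 of 157 in TCP (21.7%, 15.5% to 28.9%) and 7 of 53 in TIP (13.2%, 5.48% to 25.3%). Among all peaks of the same lists the share was 40% in TBP, 35.4% in TCP and 51.8% in TIP, and among narrow peaks it was 40.2% in TBP, 35.7% in TCP and 52.5% in TIP. Wide and narrow peaks had intervals that did not overlap in any of the 3 compounds. A wide peak covers more of the genome, but the middles of wide peaks were nearly free of narrow peaks of other lists. At most of the other sites control had a peak elsewhere in the host gene: 48 in TBP, 82 in TCP and 33 in TIP. Control had no peak in the gene for 18 wide peaks of TBP, 40 of TCP and 13 of TIP. Counted by gene, control had a peak in 78.3% of genes with a wide TBP peak (67.9% to 86.6%) and in 65.5% of all genes with a TBP peak. For TCP the shares were 72.2% (64.2% to 79.4%) and 61.2%. For TIP they ran the other way, at 72.3% (57.4% to 84.4%) and 81.6%, and there the intervals overlapped. Wide control peaks were also overlapped less often than narrow ones. A TBP peak overlapped 11 of 51 wide control peaks (21.6%) and 57.7% of narrow control peaks. For TCP the values were 15 of 51 (29.4%) and 56.0%, and for TIP 9 of 51 (17.6%) and 35.5%.

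**Figure D5:**
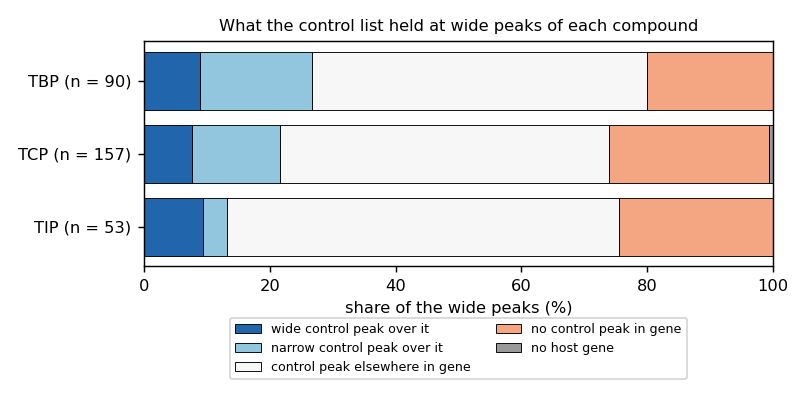
What the control list held at the wide peaks of TBP, TCP and TIP (share of each list's wide peaks, %). A wide control peak lay over 8 of 90 in TBP, 12 of 157 in TCP and 5 of 53 in TIP, and a narrow one over 16 of those in TBP, 22 of those in TCP and 2 of those in TIP.

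The 342 wide peaks with a host gene fell in 249 genes, of which 188 had one in 1 list, 51 in 2, 9 in 3 and 1 in all 4. Sharing with control was counted for wide peaks and for peaks of any width. A wide control peak was found in 18.1% of the genes with a wide TBP peak, 13.2% of those with a wide TCP peak and 14.9% of those with a wide TIP peak, while a control peak of any width was found in 65.5% of genes with any TBP peak, 61.2% with any TCP peak and 81.6% with any TIP peak. These shares are not on 1 scale, because wide peaks are far fewer. Of genes with any peak, 2.66% held a wide peak in TBP (83 of 3125), 4.24% in TCP (144 of 3398), 2.63% in TIP (47 of 1788) and 1.9% in control (47 of 2475). The shares of 13.2% to 18.1% with a wide control peak lay above this 1.9%. Host genes held more peaks than other genes with a peak, but this count includes the wide peak that made them hosts. A gene with more peaks also has more chances to hold a wide one. In each list the median of host genes was 2 peaks per gene against 1 in other genes with a peak. Genes with a single peak made up 33.7% of hosts and 57.1% of the other genes in TBP, 31.9% and 56.3% in TCP, 36.2% and 66.9% in TIP, and 34.0% and 61.6% in control. The part of the number of peaks in which genes held a wide one was not tested.

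Eif3a, a core subunit of a translation initiation factor, was the gene with a wide peak in every list, at 5 loci. TBP had wide peaks of 785, 2125 and 1119 bp in it, TCP of 1010 and 2125 bp, TIP of 581 bp and control of 1023 bp. The 2125 bp peak had identical ends in TBP and TCP and was on the grid, whereas the TIP peak (exon 14) and the control peak (exon 16) did not overlap a wide peak of another list. Caprin1, an RNA-binding protein of stress granules, likewise held wide peaks at 3 different places: 2999 bp in TCP (exon 5), 4982 bp in TIP (exon 3) and 1088 bp in control (exon 6). Hsp90b1, the endoplasmic reticulum member of the HSP90 family, held wide peaks of 962 and 1583 bp in TBP, 905 bp in TCP and 1508 bp in control. Its 1583 bp TBP peak and 1508 bp control peak overlapped. Pdia3, a disulfide isomerase of the same compartment, had a 1196 bp peak with identical ends in TBP and TCP and a 770 bp peak elsewhere in control. Vps13c was the gene with a wide peak in all 3 compounds and none in control, but its TBP peak (1923 bp, exon 4) lay at another place than the overlapping TCP and TIP peaks. No locus had wide peaks in the 3 compounds and not in control.

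Genes with a wide peak in control and in no compound numbered 16. Apart from Srek1ip1, Tm9sf3 and Cpsf7 these included Mrpl13 (4348 bp, a mitochondrial ribosomal protein gene) and Rpl23 (2748 bp, a ribosomal protein gene). Srek1ip1 and Rpl23 had no peak of any width in TBP, TCP or TIP. The 2 control peaks of Srek1ip1 lay on opposite strands, the plus one starting at 104792609 and the minus one at 104792618, upstream of the RefSeq start at 104817170. They were the 1 pair of overlapping wide peaks on opposite strands in the series.

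Among the lists of genes examined, 249 of 4308 genes with a peak in any list held a wide one (5.78%, 5.10% to 6.52%). Chaperones had 6 of 18: Hsp90b1, Hspa4, Hspd1, Canx, Pdia3 and Pdia6. Translation factors and poly(A)-binding proteins had 5 of 17: Eif3a, Eif3c, Eif5b, Pabpc1 and Pabpc4. Splicing factors had 4 of 28 (Hnrnpd, Hnrnpm, Hnrnpu and Sfpq), ribosomal proteins 3 of 32 (Rpl23, Rpl24 and Rpl5), actin and cytoskeleton genes 2 of 13 (Lcp1 and Tln1), the m6A machinery 1 of 11 (Rbm15), lysosome and macrophage genes 1 of 13 (Ctsz) and glycolysis 0 of 9. Of the macrophage markers, Csf1r, the growth factor receptor on which macrophage survival depends, held wide peaks of 1279 bp in TCP (exon 10) and 895 bp in control (exon 17), at different places.

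Among the chaperones, Hspa4, a cytosolic member of the HSP70 superfamily, held neighbouring wide peaks labelled with exon 17 of 19, of 1272 bp in TBP and of 504 bp in TCP, which did not overlap. Hspd1, the mitochondrial chaperonin, held a 512 bp peak in TCP and had no peak in the other lists. Canx, a lectin chaperone of the endoplasmic reticulum, held an 847 bp peak of 3′ UTR class in control, over which TBP had a narrow peak. Pdia6, a disulfide isomerase, held a 653 bp peak in TCP.

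Among the translation genes, the Eif5b peaks of TCP (930 bp) and control (780 bp) shared their start, and narrow peaks of TBP and TIP lay over the TCP one. Eif5b encodes a factor of ribosomal subunit joining. Eif3c, another subunit of the Eif3a complex, held a 738 bp peak in TCP with a narrow TBP peak over it. Pabpc4 held an 842 bp peak in TCP and had no peak in TBP, TIP or control. A small RNA gene lay inside each of these Eif3c and Pabpc4 peaks. Rpl24, of the large ribosomal subunit, held a 2414 bp peak in TCP that covered 46.8% of the gene's RefSeq span, and it had no peak in the other lists.

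Among the splicing factors, Hnrnpd held an 11047 bp peak of 5′ UTR class in TCP that covered 47.6% of the gene's span, with narrow peaks of TBP and control at its 3′ end. Hnrnpm held 3 wide peaks in TIP, of 4868, 1156 and 1900 bp with the labels exon 3, exon 10 and exon 13 of 16, and 1 of 2935 bp in control labelled exon 9. The 3 other lists had peaks in Hnrnpm but none over the TIP peaks. Hnrnpu held a 535 bp peak in TIP with 3 narrow peaks of other lists at its 3′ end. Genes with several wide peaks in 1 list numbered 16. Rbm15, which recruits the m6A methyltransferase complex to RNA, held an 855 bp peak in TBP labelled exon 2 of 2. Ctsz, a lysosomal cysteine protease gene, held a 670 bp peak in TCP, and Tln1, which links integrins to actin, a 1748 bp peak in control.

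The deposited score, the authors' own value per peak on an unstated scale, was read within a list only. The list median was reached by 51.1% of wide and 54.5% of narrow peaks in TBP, 54.8% and 53.6% in TCP, 47.2% and 51.6% in TIP, and 45.1% and 52.0% in control, and the intervals overlapped in each list. Several wide peaks named above had the lowest score of their list. Examples are the 2125 bp Eif3a peaks of TBP and TCP, Rbm15 and Hspa4 in TBP, and Pdia3 in TCP. In control, Caprin1 and Eif5b were such cases. In TBP the best ranks were those of Ogdh (198), Rhoq (357), Rif1 (453) and B2m (483), the light chain of MHC class I. In TCP they were Zfp809 (136), the endoplasmic reticulum co-chaperone gene Dnajb12 (163), the transcriptional repressor gene Spen (169) and Rcsd1 (204). In TIP, Matr3 and Smap2 had rank 17, followed by Ybx3 (399) and Serinc3 (520). A rank is the best place of all peaks tied at a score. How many peaks of a list shared each of these scores was not counted. In control the order was Pabpc1 (129), Spen (170), Pdia3 (172) and Csf1r (193). The Spen peaks of TCP (4684 bp) and control (4659 bp) shared an end. The Pabpc1 peak of control measured 2451 bp, and this poly(A)-binding protein gene had no peak of any width in TBP, TCP or TIP.

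For 9 wide peaks no gene on their strand was found. Of these, 8 lay opposite to 1 gene, among them 3 at the Supt16 locus and 3 opposite to Ska2, a spindle protein gene, with 1669 bp in TCP, 1619 bp in TIP and 1644 bp in control. The host differed from the nearest gene named in the lists for 46 of 342 wide peaks (13.5%). Of the 342, 337 lay within the RefSeq span of their host.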

How the data were processed

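The 4 lists were used as deposited, 1 per immunoprecipitated library. Per the file headers, each row gives positions, strand, width, annotation, nearest gene and the authors' score. How peaks were called, at what threshold and against which input was not given by the labels or headers. Per the submitters' processing notes, tools included HISAT2 2.1.0, ChIPseeker 1.26 and HOMER 4.11, with builds GRCm38 and mm10.

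The host gene was the one named in the exon annotation. Without one, it was the listed nearest gene where that gene contained the peak on the same strand, or the 1 RefSeq gene overlapping the peak. Overlap meant at least 1 bp on the same strand. End windows reached 100 bp to each side. Named genes were hosts in at least 3 lists, the 5 widest and 4 best-scoring peaks per list, hosts in 3 compounds but not control, the 6 widest in control alone, peaks nearest the width limit, and up to 4 members per gene list. Further genes were named after their values were seen. Some genes that the rule selects are not reported here. The members and lists were chosen with earlier results of these data known. Steps were tested on simulated data. Python 3.11.15, pandas 2.3.3 and SciPy 1.17.1 were used.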

Additional observations from a re-analysis of the deposited data

How the results depend on the processing

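No paired analysis was possible because each group has 1 library, and for the same reason no replicate could be left out. Of 60 recalculated values, 54 stayed within their interval or within 1.5 times the count. Restricting the lists to peaks at or above the list median score left 46 wide peaks in TBP, 86 in TCP, 25 in TIP and 23 in control, which follows from dropping the lower-scoring peaks, and took the 3′ UTR share in TCP to 31.4%. An end window of 50 bp took the share of TBP wide peaks with a narrow peak at an end to 41.1%. Exon numbers could be compared for 38 of 351 wide peaks, so more than the 23 with 2 exons may span an intron. The 23 include the Herc1 peak of TCP, whose strand is opposite to that gene. Intervals cover counting error only.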
